A study of Arabidopsis thaliana with 15 samples.

Results

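The CBF and COR cold response genes of Arabidopsis thaliana comprised 10 of the 27444 nuclear protein coding genes in the annotation, and they were chosen by name. Of these, 3 were the C-repeat binding factor genes CBF1 (AT4G25490), CBF2 (AT4G25470) and CBF3 (AT4G25480), and 7 were cold regulated genes, COR15A (AT2G42540), COR15B (AT2G42530), COR47 (AT1G20440), KIN1 (AT5G15960), KIN2 (AT5G15970), RD29A (AT5G52310) and RD29B (AT5G52300). RefSeq lists CBF3 under the symbol DREB1A, RD29A under LTI78 and RD29B under LTI65. All 10 were found by locus on TAIR10, and they lay in 5 loci on chromosomes 1, 2, 4 and 5.

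The study profiled, by ChIP-seq of whole seedlings, monoubiquitinated histone H2A (H2AK121ub), set by Polycomb repressive complex 1, and trimethylated histone H3 (H3K27me3), set by Polycomb repressive complex 2. It comprised 15 libraries, 14 of immunoprecipitated chromatin with 2 replicates in each of 7 groups and 1 input of wild type, all of the Col-0 strain at 10 days after germination (DAG), grown in long days with no cold treatment named. H2AK121ub was profiled in wild type (wt), the emf1 mutant and the ring1ab double mutant, a knockdown that keeps some activity of the RING1 proteins of Polycomb repressive complex 1, and H3K27me3 in these and in the lhp1 mutant. The files analysed here hold wild-type peaks of each mark, so every value below is about unstressed wild-type seedlings and the mutant libraries are not analysed here. Whole seedlings mix tissues, so a peak may come from some of the cells, and 2 marks at a gene need not sit in the same cells. No cell type was labelled.

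In the cold, CBF proteins, which belong to the AP2/ERF family, bind the C-repeat or drought responsive element (CRT/DRE) upstream of COR genes and activate them. COR genes encode hydrophilic proteins that protect membranes and proteins during freezing and drought, and several also respond to abscisic acid through a second element, the ABRE. Polycomb group (PcG) proteins keep genes silent or poised through the marks measured here, with EMF1 and LHP1 as plant partners of the complexes.

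Every member carried H2AK121ub and 6 of 10 also carried H3K27me3. A gene was called marked when a peak shared at least 1 bp with its body or with the 750 bp upstream of the transcription start site (TSS), the overlap rule of the study's methods. The study also filtered out genes of low signal, which peak positions alone do not allow, so its classes may differ from those given here. H2AK121ub met that rule at 10 of 10 members, beside 68.1% of all protein coding genes. H3K27me3 met it at 6, CBF3, COR15A, COR15B, KIN1, KIN2 and RD29B, beside 29.2% of all genes. These 6 were the H2AK121ub/H3K27me3 genes, beside 24.2% of all genes in that class. The other 4, CBF1, CBF2, COR47 and RD29A, were only-H2AK121ub genes, a class of 43.9% of all genes. Per the study's methods, the peaks are those shared by replicates, and peaks of an earlier age may be combined with those at 10 DAG. They hold no value for each replicate, so the spread between replicates is unknown. No test was possible and all comparisons are descriptions. Neighbouring members also share peaks, so the 10 genes do not give 10 separate observations.

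Over the gene body, H2AK121ub was the wider mark in 8 members and H3K27me3 in the COR15 pair. The median member had 80.4% of its body under H2AK121ub, with a range from 44.9% to 100%, and the median over all genes was 15.8%. Among the 18702 genes that carry the mark, the median was 37.9%. The members' bodies ran from 986 bp in CBF2 to 2928 bp in RD29A, and genes of like length were not compared. H3K27me3 covered a median of 9.36% of the members' bodies, and over all genes the median was 0%. Over the 6 members that carry H3K27me3, the median was 29.0%, against 88.8% over all 8009 genes with that mark.

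**Figure D1:**
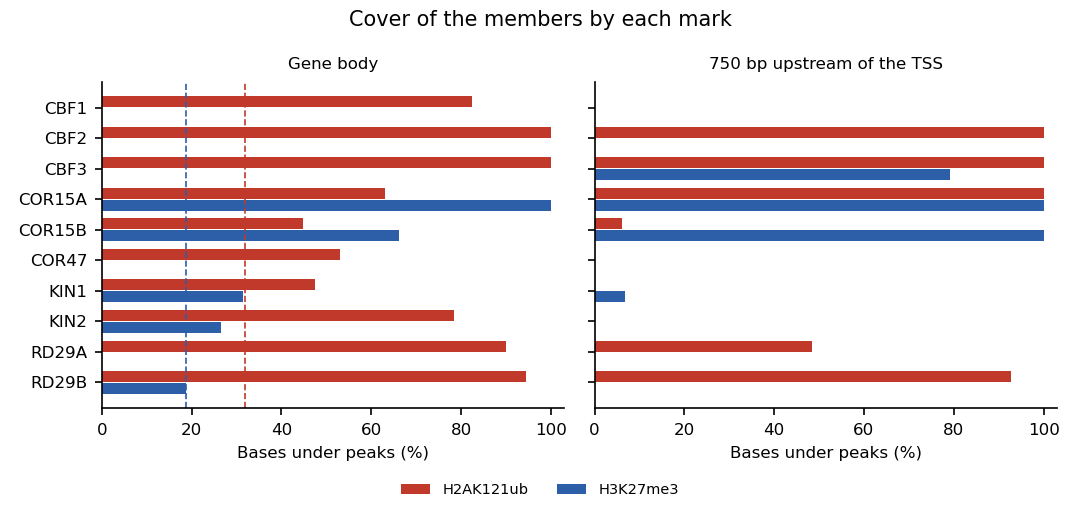
Percent of bases under peaks of each mark in the gene body (left) and in the 750 bp upstream of the TSS (right) for each of the 10 members, 1 bar per mark, with dashed lines at the mean body cover of all protein coding genes (31.8% for H2AK121ub and 18.7% for H3K27me3). Every member has a body bar of H2AK121ub, the lowest at 44.9% in COR15B, while H3K27me3 is widest in COR15A and COR15B and absent from the bodies of the 3 CBF genes, COR47 and RD29A.

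The CBF genes stand in a row on the minus strand of chr4:13015250-13022996, in the order CBF2, CBF3, CBF1 along the chromosome, with gaps of 1774 and 2379 bp. Each is a gene of 1 exon, and their coding sequences were 86.9% to 87.5% identical to each other. A single H2AK121ub peak of 9312 bp, chr4:13013472-13022783, spanned all 3 genes. Only 57 of the 16310 H2AK121ub peaks were longer, and the median peak was 978 bp. It covered 100% of CBF2 and of CBF3, the members whose bodies lay wholly under the mark, as did 8.33% of all genes. CBF1, the last gene of the row, was covered over 82.5% of its body, because the peak ended 213 bp inside it. The CBF1 TSS and its upstream window were therefore free of H2AK121ub, while the upstream windows of CBF2 and CBF3 were wholly under it.

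H3K27me3 met the CBF locus in 1 peak only. That peak, chr4:13019557-13021132, was 1576 bp long, lay between CBF3 and CBF1, and was wholly inside the H2AK121ub peak. It left the 156 bp next to the CBF3 TSS free and covered 79.2% of the CBF3 upstream window, but no base of any CBF body. So CBF3 was an H2AK121ub/H3K27me3 gene through its upstream window, and with the body alone it became only-H2AK121ub. The same peak covered 100% of AT4G07395, a long non-coding RNA gene in that interval, and 69.1% of AT4G03125, another non-coding RNA gene there. AT4G07385, a long non-coding RNA gene on the plus strand that overlaps the 3' end of CBF3, had 100% H2AK121ub and 0% H3K27me3. The protein coding neighbours ABCB28 and RS40 had 14.0% and 4.49% of their bodies under H2AK121ub and no H3K27me3.

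The border of H3K27me3 upstream of CBF3 is shown because it decided the class of that gene. The line gives the 250 bp before the TSS, 5′ to 3′ on the minus strand, chr4:13019401-13019650, read from the RefSeq genome of the TAIR10 build. Capitals mark the 94 bases under the H3K27me3 peak, and all 250 bases lay under the H2AK121ub peak.
CBF3 upstream: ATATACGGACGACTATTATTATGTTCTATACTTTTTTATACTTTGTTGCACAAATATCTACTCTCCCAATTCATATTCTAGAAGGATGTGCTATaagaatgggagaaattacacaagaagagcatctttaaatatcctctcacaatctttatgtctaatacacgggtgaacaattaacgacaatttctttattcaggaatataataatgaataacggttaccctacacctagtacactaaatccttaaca

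**Figure D2:**
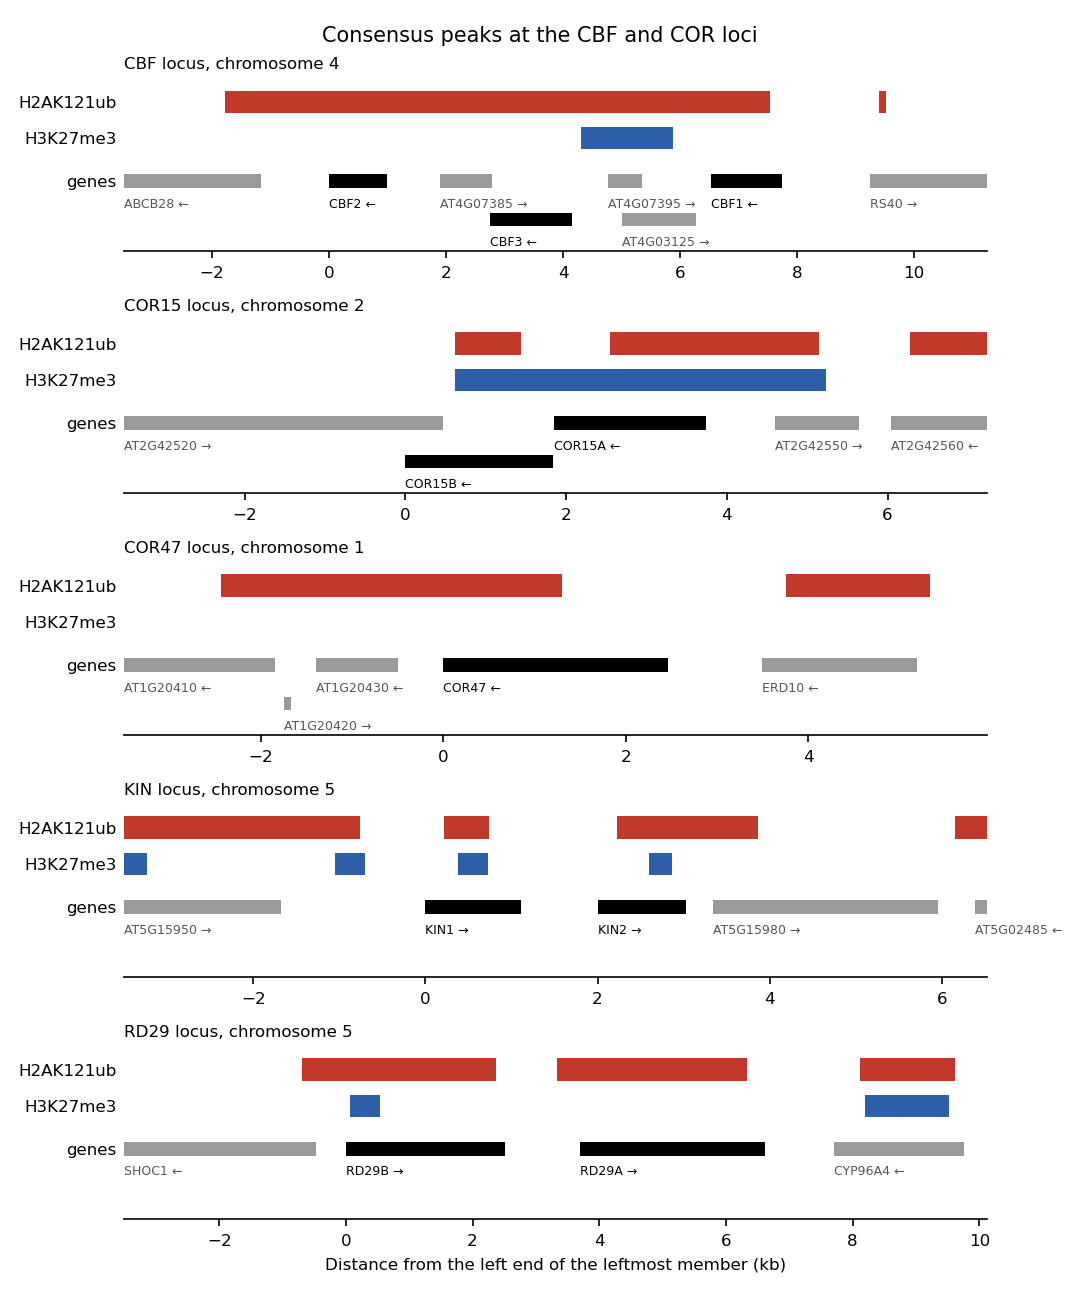
Maps of the 5 loci in genome order, with H2AK121ub peaks (red), H3K27me3 peaks (blue), members (black) and other annotated genes (grey) plotted against the distance in kb from the left end of the leftmost member. Arrows give the direction of transcription, and peaks and genes are clipped at the panel ends. A single H2AK121ub peak of 9312 bp spans the 3 CBF genes, a single H3K27me3 peak of 4616 bp runs over COR15B and COR15A, and the H3K27me3 peaks in KIN1, KIN2 and RD29B are short.

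COR15A and COR15B, which encode related chloroplast stroma proteins that stabilise membranes on freezing, were the members with the most H3K27me3. They lie 7 bp apart on the minus strand of chr2:17708593-17712330, with COR15B first along the chromosome, and 83.8% of their aligned coding bases were identical. One H3K27me3 peak of 4616 bp, chr2:17709214-17713829, covered 100% of COR15A, 66.3% of COR15B and the whole 750 bp upstream of both. COR15A was the single member with its body wholly under H3K27me3, as were 12.2% of all genes. The TSS lay under H3K27me3 in COR15A and COR15B only, 2 of 10 members, beside 17.7% of all genes.

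H2AK121ub was split at the COR15 locus where H3K27me3 was not. A peak of 826 bp, chr2:17709210-17710035, lay within COR15B and covered 44.9% of its body. A peak of 2605 bp, chr2:17711138-17713742, covered 63.1% of COR15A and its whole upstream window. The outer borders of the marks nearly met, with starts 4 bp apart and ends 87 bp apart. Both marks lay together over 822 bases of COR15B and 1193 bases of COR15A. The 3' untranslated region (UTR) differed between the pair, since in COR15A it was 100% under H3K27me3 and 12.9% under H2AK121ub, and in COR15B it was free of both. The 3' end of COR15B overlaps AT2G42520, which carried neither mark, and ChIP reads cannot be given to 1 strand. On the other side, AT2G42550 had 52.9% H2AK121ub and 61.3% H3K27me3 over its body, and AT2G42560 had 89.5% and 47.4%.

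KIN1 and KIN2, which encode small hydrophilic proteins induced by cold and abscisic acid, each held a short H3K27me3 peak inside a longer H2AK121ub peak. They lie 892 bp apart on the plus strand of chr5:5209717-5212743, and 95.0% of their coding bases were identical. In KIN1, H2AK121ub (chr5:5209932-5210458, 527 bp) covered 47.5% of the body and H3K27me3 (chr5:5210099-5210447, 349 bp) covered 31.4%. In KIN2, H2AK121ub (chr5:5211941-5213580, 1640 bp) covered 78.3% and H3K27me3 (chr5:5212313-5212584, 272 bp) covered 26.5%. Both H3K27me3 peaks were among the shortest in the list, where 97.1% and 98.3% of the 4367 peaks were longer. Neither gene had a mark at its TSS. A further H3K27me3 peak upstream, chr5:5208669-5209017, reached 51 bp into the KIN1 upstream window. Of the neighbours, AT5G15950 had 100% of its body under H2AK121ub and 24.6% under H3K27me3, and AT5G15980 had 19.9% and 0%.

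RD29B and RD29A, which encode large hydrophilic proteins responsive to desiccation, differed in class although they are neighbours. They lie on the plus strand of chr5:21237021-21243644 with RD29B first and a gap of 1185 bp, and 76.2% of their aligned coding bases were identical. H2AK121ub covered 94.4% of RD29B with a peak of 3065 bp (chr5:21236326-21239390) and 90.0% of RD29A with a separate peak of 2999 bp (chr5:21240353-21243351). Both TSSs lay under H2AK121ub, with 92.7% of the RD29B and 48.5% of the RD29A upstream window covered. H3K27me3 was present in RD29B alone, as a peak of 470 bp (chr5:21237088-21237557) that began 67 bp after the TSS and covered 18.7% of the body. This peak lay over 63.6% of the RD29B 5' UTR and 13.0% of its coding sequence. On the far side of RD29A, the cytochrome P450 gene CYP96A4 had 73.4% of its body under H2AK121ub and 64.8% under H3K27me3.

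COR47, a dehydrin gene, stood alone on the minus strand of chr1:7084409-7086873 and was the member farthest from H3K27me3. No H3K27me3 peak lay within 5 kb of it on either side. An H2AK121ub peak of 3738 bp, chr1:7081976-7085713, ran from beyond its 3' end through 52.9% of its body. The adjacent dehydrin gene ERD10 was also only-H2AK121ub, with 84.2% of its body covered by another peak. AT1G20430, on the other side, was only-H2AK121ub as well, with 100% of its body inside the same peak as COR47.

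Along the gene, H2AK121ub covered nearly all of the coding sequence of each member and the annotated ends unevenly. It lay over 92.5% to 100% of the coding bases of each member and 100% in 7 of 10, beside 16.9% of all genes with wholly covered coding sequence. The median over all genes was 15.1% of coding bases, and over genes with the mark 43.7%. The coding sequences of the members ran from 201 bp in KIN1 and KIN2 to 2133 bp in RD29A. A short coding sequence needs less of a peak to be covered whole, and genes of like length were not compared. Over all genes, H2AK121ub was most frequent at 350 bp into the gene, at 51.3%. The first coding base lay under H2AK121ub in 10 of 10 members, beside 46.1% of all genes. The TSS lay under it in 5, CBF2, CBF3, COR15A, RD29A and RD29B, beside 30.2%. In the other 5 the peak stopped between the TSS and the first coding base, reaching 221 bp upstream of that base in CBF1, 162 bp in COR15B, 60 bp in KIN1, 49 bp in COR47 and 25 bp in KIN2. In those 5 genes the annotated TSS lay 247 to 1209 bp before the first coding base, the longest being COR47, so only 4.05% of the COR47 5' UTR was covered. Over all 10 members that distance ran from 149 to 1209 bp, and a start nearer to the coding sequence than the RefSeq one would move the upstream counts.

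**Figure D3:**
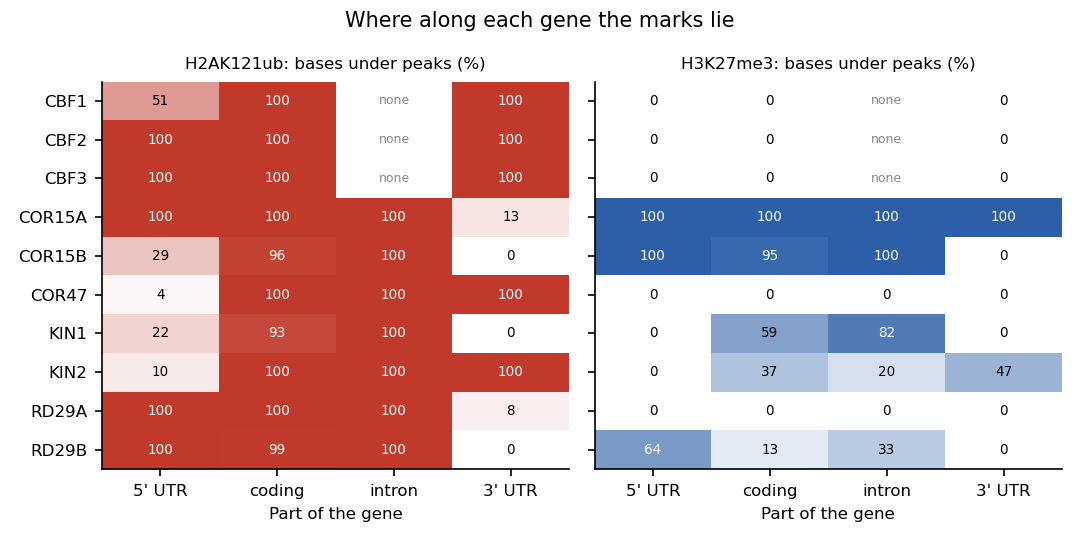
Percent of bases under H2AK121ub (left) and H3K27me3 (right) in the 5' UTR, coding sequence, introns and 3' UTR of each member, written in each cell and shown by the depth of colour, where "none" means that the gene has no annotated intron. The coding column of H2AK121ub is 92.5% or more in every member, while its 5' UTR column runs from 4.05% in COR47 to 100%.

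In the upstream window, H2AK121ub was present in 6 of 10 members, CBF2, CBF3, COR15A, COR15B, RD29A and RD29B, beside 39.4% of all genes. The COR15B window held it over 6.13% only. H3K27me3 was present in the window of 4 members, CBF3, COR15A, COR15B and KIN1, beside 24.2% of all genes. When the window was set before the first coding base in place of the TSS, a choice made after seeing the data, H2AK121ub was present in all 10, and the share of all genes was also higher, at 53.2%. Around the TSS, H2AK121ub was over 5 of 10 members at the TSS itself and over 9 of 10 at 500 bp into the gene, where it was over 46.6% of all genes. At 1500 bp into the gene or beyond it, 7 of 10 members were still under the mark, beside 19.7% of all genes.

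**Figure D4:**
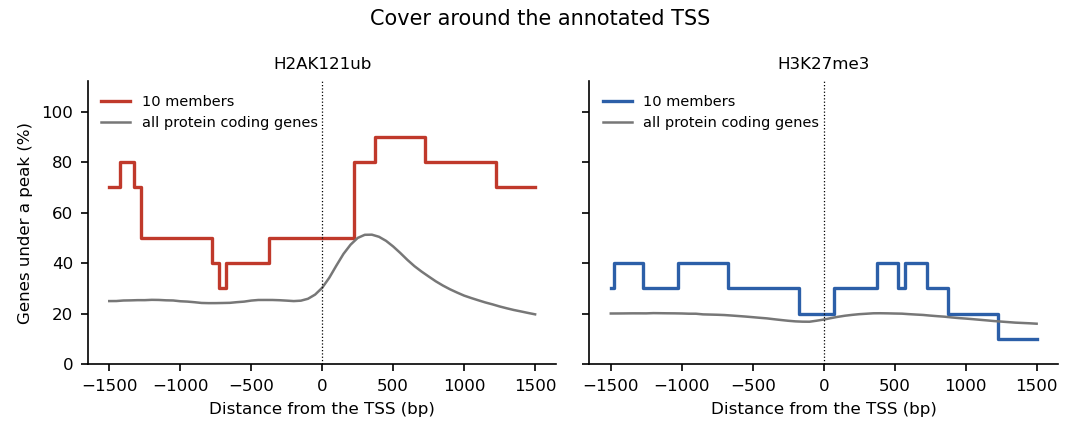
Percent of the 10 members (coloured) and of all protein coding genes (grey) under a peak at each distance from the annotated TSS, read every 50 bp from 1500 bp upstream to 1500 bp downstream, for H2AK121ub (left) and H3K27me3 (right). The H2AK121ub line of the members stands at 50% at the TSS and 90% at 500 bp, with all genes at 30.2% and 46.6%, and 10% of a member line is 1 gene.

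H3K27me3 at the members came mostly as short peaks on H2AK121ub. The gene regions of the members held 6 distinct H3K27me3 peaks with a median length of 409.5 bp, against 2925 bp over all 4367 peaks. The COR15 peak of 4616 bp was longer than the median of all peaks. The next longest, the CBF3 peak of 1576 bp, was shorter than it, and 71.6% of all H3K27me3 peaks were longer than the CBF3 peak. All 6 H3K27me3 peaks of the members overlapped an H2AK121ub peak, as did 93.2% of all H3K27me3 peaks. Of the 6, 4 lay wholly under one, the CBF3 peak and the peaks in the bodies of KIN1, KIN2 and RD29B, beside 20.2% of all. These 4 were shorter than the median of all peaks, a short peak fits inside another more easily, and peaks of like length were not compared. The 8 distinct H2AK121ub peaks had a median of 2802 bp, against 978 bp over the whole list. A peak is as long as the caller, the intersection of replicates and any combination of ages left it. The files hold no signal that would rank weak and strong peaks.

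The upstream sequences of COR15A, RD29A and RD29B are shown because they hold the CRT/DRE core in DNA under H2AK121ub, and that of KIN1 because it lay outside both marks. Each line is the 250 bp before the TSS, 5′ to 3′ on the strand of the gene, from the RefSeq genome of the TAIR10 build. Capitals mark the CRT/DRE core CCGAC and the ABRE core ACGTG on either strand, and the palindrome CACGTG holds a pair of overlapping ABRE cores that count as 2 matches. The windows are chr2:17712331-17712580 for COR15A (minus strand), chr5:21240467-21240716 for RD29A, chr5:21236771-21237020 for RD29B and chr5:5209467-5209716 for KIN1 (plus strand).
COR15A upstream: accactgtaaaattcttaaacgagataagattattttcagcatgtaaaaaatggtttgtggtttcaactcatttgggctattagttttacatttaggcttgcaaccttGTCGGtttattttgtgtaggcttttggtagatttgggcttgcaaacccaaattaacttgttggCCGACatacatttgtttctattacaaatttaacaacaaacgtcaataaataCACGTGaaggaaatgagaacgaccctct
RD29A upstream: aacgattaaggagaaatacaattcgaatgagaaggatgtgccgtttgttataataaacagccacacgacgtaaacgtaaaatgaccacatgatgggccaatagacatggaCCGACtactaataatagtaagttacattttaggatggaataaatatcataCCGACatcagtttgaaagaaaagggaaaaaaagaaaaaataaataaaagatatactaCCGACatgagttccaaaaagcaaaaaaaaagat
RD29B upstream: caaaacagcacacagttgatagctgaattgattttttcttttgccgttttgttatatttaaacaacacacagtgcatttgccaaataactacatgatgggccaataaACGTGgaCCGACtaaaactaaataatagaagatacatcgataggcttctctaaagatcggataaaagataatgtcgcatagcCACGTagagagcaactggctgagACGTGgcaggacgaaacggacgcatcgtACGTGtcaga
KIN1 upstream: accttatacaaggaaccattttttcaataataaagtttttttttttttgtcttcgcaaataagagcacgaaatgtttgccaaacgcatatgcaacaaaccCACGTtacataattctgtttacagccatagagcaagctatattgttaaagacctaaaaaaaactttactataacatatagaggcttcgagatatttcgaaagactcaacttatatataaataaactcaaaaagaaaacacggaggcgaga

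CRT/DRE cores, the binding site of the CBF proteins, were found in the 250 bp windows of 3 members, 3 matches in RD29A, 2 in COR15A and 1 in RD29B, beside 12.0% of all such windows with at least 1. The 250 bp windows of these 3 genes lay wholly under H2AK121ub, so all 6 matches did as well, and the 2 in COR15A also lay under H3K27me3. ABRE cores, bound by bZIP factors of the abscisic acid response, were found in 5 members beside 22.9% of windows, with 4 matches in RD29B, 2 each in COR15A and CBF2, and 1 each in KIN1 and KIN2. Within the 250 bp windows, RD29A held CRT/DRE cores and no ABRE core, and RD29B held 1 CRT/DRE core and 4 ABRE cores. The evening element AAATATCT, a site of clock factors such as CCA1, was found, on either strand, in 4 members, CBF1, CBF2, CBF3 and KIN1, beside 4.79% of windows. In CBF3 it lay 199 to 192 bp before the TSS, within the bases printed in capitals above for H3K27me3. The telobox AAACCCTA, or its reverse complement, was in none of the 10 windows and in 4.49% of all.

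The motif counts depend on where the window is set. In the 500 bp before the first coding base, a window chosen after seeing the data, the CRT/DRE core was in all 7 COR genes and none of the 3 CBF genes, beside 23.4% of genes. Whether the further matches lay under a mark was not read. In COR15B, COR47, KIN1 and KIN2, the H2AK121ub peak at the first coding base reached only 162, 49, 60 and 25 bp upstream of it. In that window the ABRE core was in 10 members beside 34.9% of genes, with 1 match in RD29A. The evening element was in 6 beside 8.27%, with CBF1 no longer among them and COR15A, COR15B and KIN2 added. The telobox was in 0 beside 15.2%. These letters are short and were matched without regard to flanking bases, so a match is a description and not a site.

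Genes known to act with the members were read from 4 lists. Over all protein coding genes, 68.1% carried H2AK121ub and 29.2% carried H3K27me3, and the median body cover was 15.8% and 0%. Of 15 regulators of the CBF genes, 13 carried H2AK121ub and 1 carried H3K27me3, with a median body cover of 29.3% and 0%. The exception was MYB15, a MYB factor that represses CBF genes, with 81.9% of its body under H2AK121ub and 100% under H3K27me3. PIF4, a light signalling bHLH factor, had the most H2AK121ub of this list at 91.5% and no H3K27me3. Of 8 other DREB factors, 7 carried H2AK121ub and 1 carried H3K27me3. The closest relatives of the CBF genes among them differed, since CBF4 had 75% and DDF1 had 82.0% of the body under H2AK121ub without H3K27me3, while DDF2 had 100% under each mark.

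Of 12 other cold regulated and LEA genes, 11 carried H2AK121ub, with a median body cover of 83.4%, and 5 carried H3K27me3. The shares over all genes were 68.1% and 29.2%. The dehydrin genes LTI30, XERO1 and RAB18 had 100% of the body under each mark, unlike their relatives COR47 and ERD10, which had no H3K27me3. LTI30 and XERO1 are neighbours with unbroken cover by each mark, and COR47 and ERD10 are neighbours too, so these genes are not separate observations. COR413IM1, a gene for a chloroplast membrane protein, had 100% of its body under H2AK121ub and none under H3K27me3. Of 5 ABRE binding factors, 4 carried H2AK121ub, with a highest body cover of 51.2%, and 0 carried H3K27me3, beside the same shares. Of the 17 other protein coding genes within 5 kb of a member's locus, 14 carried H2AK121ub and 7 carried both marks, beside 68.1% and 24.2% of all genes. Some of them met the rule through a peak that also marks a member, so these counts partly restate the members. SHOC1 and AT5G15980 held H3K27me3 only upstream, from the peaks in RD29B and KIN2. The COR15 peak of H3K27me3 ran into AT2G42550, and AT1G20430 lay inside the COR47 peak of H2AK121ub.

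**Figure D5:**
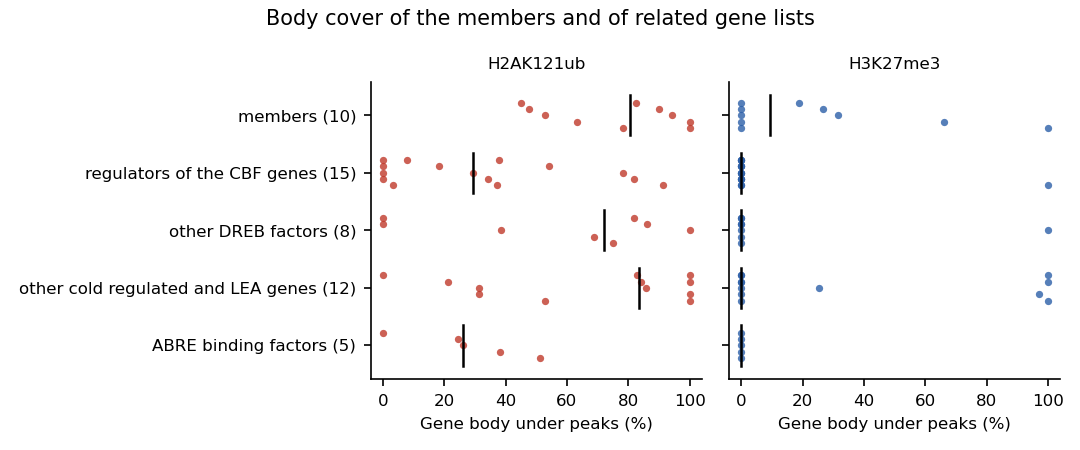
Percent of the gene body under H2AK121ub (left) and H3K27me3 (right) for each gene (point) of the 10 members and of 4 related lists, with the number of genes in parentheses, a black line at the list median, and points shifted vertically to limit overlap. The H2AK121ub median is 80.4% for the members, 29.3% for the regulators and 83.4% for the other cold regulated and LEA genes, and the ABRE binding factors hold no H3K27me3.

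The members are copies of each other in part, so the share of sequence that reads can be placed on was checked. Every 100-base word of the 10 gene bodies and of the 10 upstream windows was found once in the genome. Shorter reads, or mates placed with mismatches, were not assessed.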

How the data were processed

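Per the study's methods, the authors used Bowtie to place paired-end reads on TAIR10. MACS2, with its default parameters, gave them peaks for each wild-type replicate against an input, and the replicates were intersected with bedtools. Versions and intersection settings are not given in the sources used here. The methods also name wild-type data of an earlier age, and whether the lists hold those peaks is not settled by the files. The authors deposited 2 lists of 3 columns (chromosome, start, end; 16310 H2AK121ub and 4367 H3K27me3 peaks) without signal, fold or p-value. The lists therefore give no depth for a library or a peak, and a region without a peak is a region without a call.

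Peaks were set against RefSeq genes of the same assembly, whose chromosome lengths no peak exceeded, and positions count from 1. Gene marking needed 1 bp of overlap with the body or the 750 bp upstream of the TSS, the outer end of the annotated gene. Body cover is the percent of bases under peaks. Class, cover and overlap functions were tested on simulated data with known answers. Body cover and the shares over all genes came from a separate, faster count that was not in this test. The classes it gave to the 10 members matched those of the tested function. RefSeq symbols matched 10 of 10 members and 39 of 40 genes of the related lists, the rest being taken by locus. Coding sequences were aligned with Biopython 1.88. Named were the members, their neighbours within 5 kb, the other DREB1 genes, and genes from the related lists with the most body cover by a mark, at most 2 per list and mark except that genes tied at 100% were all named. The alternatives were the body alone, 1500 or 250 bp upstream, at least 200 bp of overlap, peaks of at least 200 bp, peaks joined across gaps of at most 500 bp, exons only and shared bases. The members, lists and alternatives were chosen with earlier results of these data known.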

Additional observations from a re-analysis of the deposited data

How the results depend on the processing

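Of 35 combinations of a result and an alternative, 32 gave the same value or a count within 1.5 times the reported one. That limit was just met by H2AK121ub in the upstream window, present in 9 members with 1500 bp, against 6. A count of 10 of 10 members could not rise. With exons only, the median body cover of the members was 76.4% for H2AK121ub, against 80.4%, and 7.12% for H3K27me3, against 9.36%. With the upstream window set before the first coding base, chosen after seeing the data, 10 members had H2AK121ub in it, against 6, while the share of all genes was 53.2%, against 39.4%. The class of CBF3 alone changed, to only-H2AK121ub with the body alone, which left 5 members with H3K27me3. No paired analysis was possible because no value per replicate is in the lists. Nothing here bears on peak strength, on the mutants or on cold treated plants, and the lists cannot show the precision of a border.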
